A study of Mus musculus with 17 samples.

Results

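The RNA of late elongating spermatids (LES) was compared with that of pachytene/diplotene spermatocytes (PD) to see which transcripts of meiotic cells were still present near the end of spermiogenesis. The comparison was defined by the labels alone and takes 6 of the 17 libraries of the series, 3 of PD and 3 of LES. Both populations came from testes of wild-type male C57BL/6JRj mice aged 3 months, dissociated with collagenase and trypsin and sorted by flow cytometry on a Hoechst DNA dye together with a SYTO nucleic acid dye. The libraries of leptotene/zygotene spermatocytes (LZ), round spermatids (RS) and early elongating spermatids (EES), with 3 each from the same strain, age and sort, helped to estimate the spread. A single library of elongating spermatids sorted for a Prm1-EGFP reporter with Hoechst alone (PrmES) is given as a level only; its genotype label says wild type, which differs from its title. Nothing in the labels ties the libraries of a population to different animals, and each p-value therefore reflects variation among these libraries that could be technical.

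Spermatocytes in pachytene and diplotene are large cells that pair their homologous chromosomes, complete recombination and transcribe much of the genome, with the sex chromosomes silenced. After the meiotic divisions the haploid round spermatids transcribe again, and elongation then replaces most histones by transition proteins and protamines, which compacts the nucleus and ends transcription. Protein made after that point depends on messenger RNA that was transcribed earlier and stored, often for days, in particles with RNA-binding proteins.

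Levels are in RPKM, the reads of a gene divided by its exon length in kilobases and by the library's reads in M (mega), so a level is a share of a library and not an amount per cell. In bulk libraries fewer cells of a type and less RNA per cell cannot be told apart. A gene rose or fell when limma's moderated test reached an adjusted p under 0.05 (Benjamini-Hochberg, over every tested gene) and the log2 fold change was 1 or more in size. Among genes with a mean of at least 1 RPKM in PD, a gene was called kept when the 95% confidence interval of its log2 fold change lay wholly above −1 and it had not risen, and unresolved when it was neither kept, risen nor fallen. Kept therefore means that a fall of 1 log2 unit or more lies outside the interval, and it does not limit an increase. Levels are mean ± SD over 3 libraries and fold changes are log2 ± SE, on the deposited scale with its pseudocount of 0.01 RPKM.

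The 6 libraries held 97.2 to 137.3 M reads, with 73.4% to 77.0% of them in genes of the table in PD and 86.4% to 86.9% in LES. Between 9222 and 9316 genes reached 1 RPKM in the PD libraries and between 7021 and 8368 in the LES libraries. The markers separated the populations without overlap. Piwil1, the PIWI protein of pachytene piRNAs (chromosome 5, 128736071 to 128755474, GRCm38), was at 106, 127 and 104 RPKM in PD and 4.2, 3.19 and 7.78 RPKM in LES. Prm2, a protamine (chromosome 16, 10791377 to 10792105), was at 21.9, 15.1 and 65.4 RPKM in PD and 25434, 25264 and 23841 RPKM in LES, with the highest PD value in replicate 3. Ldhc, the lactate dehydrogenase of germ cells (chromosome 7, 46861263 to 46878147), was at 2915, 2732 and 2780 RPKM in PD and 1329, 1180.2 and 1111 RPKM in LES, so the third marker was lower in LES but still among its abundant transcripts. The log2 fold changes were −4.57 ± 0.65 (adjusted p = 2.02e-05) for Piwil1, 9.80 ± 0.51 (adjusted p = 1.27e-09) for Prm2 and −1.22 ± 0.49 (adjusted p = 0.0341) for Ldhc. In the fit of all 5 stages the call for Ldhc was a borderline one. There limma's adjusted p was between 0.0556 and 0.0811 when any 1 of the 6 libraries was left out and 0.0512 with no filter on low values. With the PD and LES libraries only, limma's adjusted p was 1.34e-05, and without LZ replicate 3 and EES replicate 2 it was 2.12e-07. Ldhc was at 210 ± 218 RPKM in LZ and 1442 ± 362 in EES, which share the estimate of spread. The Ldhc fold change was 0.08 with median centring, in which each library's median over genes is subtracted, and −3.82 with quantile normalization.

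Small amounts of RNA that mark other cells moved with the populations. The summed level of 6 genes for protamines, transition proteins and the spermatid linker histone H1f7 was 77.3, 63.6 and 249 RPKM in PD and 106350, 105690 and 96743 RPKM in LES, so PD replicate 3 stood highest in PD. The summed level of 15 Sertoli markers was 2.96, 2.79 and 3.72 RPKM in PD and 33.1, 15.4 and 56.2 RPKM in LES, and 7 of the 9 tested rose and 0 fell (limma; also 0 at an unadjusted p under 0.05 and 0 with limma-voom). Of the defining Sertoli genes, Clu went from 0.33 to 5.51 RPKM and Cst9 from 0.301 to 9.77 RPKM, while Sox9 and Fshr stayed under 0.1 RPKM in all 6 libraries. The summed level of 17 measured markers of Leydig, myoid, blood and endothelial cells was 4.33, 4.07 and 4.75 RPKM in PD and 12.9, 13.8 and 45.6 RPKM in LES, where 2 of 5 tested rose and 1 fell. Among 9 tested markers of leptotene/zygotene cells and spermatogonia 4 rose and 1 fell, and Dmc1, the meiotic recombinase, was at 0.108, 0.104 and 0.132 RPKM in PD and 2.06, 2.01 and 1.99 RPKM in LES. Beside these marker counts, 24.5% of all tested genes rose and 54.3% fell. LES replicate 3 was the highest in both somatic marker sums, and the part of these cells in the results below was not tested.

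Most transcripts of spermatocytes were lower in late elongating spermatids. Of the 13260 genes tested, 7199 fell (54.3%), 3244 rose (24.5%) and 2817 did not pass, so 78.8% changed, and the libraries of both populations did not overlap for 11921 genes (89.9%). Over the whole set the median log2 fold change was −1.46. For genes below 1 RPKM in PD no class was given. Among the 9254 tested genes with at least 1 RPKM in PD, 6610 fell (71.4%), 976 were kept (10.5%), 946 rose (10.2%) and 722 were unresolved. Another 1685 genes reached a mean of 1 RPKM in LES from below it in PD. Genes that had risen from LZ to PD numbered 3235 at or above 1 RPKM in PD, and 2335 of them fell (72.2%), 379 were kept (11.7%) and 222 rose (6.86%).

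The balance of rises and falls depended on the scale. After subtracting each library's median 4790 genes rose and 4923 fell, so rises were 49.3% of the calls against 31.1% on the deposited scale, and the median log2 fold change was −0.15. Quantile normalization gave 3751 rises and 5838 falls (39.1% rises). Gene groups are therefore given below with their median log2 fold change and with the same value relative to the median of all tested genes, and a group whose balance of rises and falls turned with the scale is named with its counts.

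**Figure D1:**
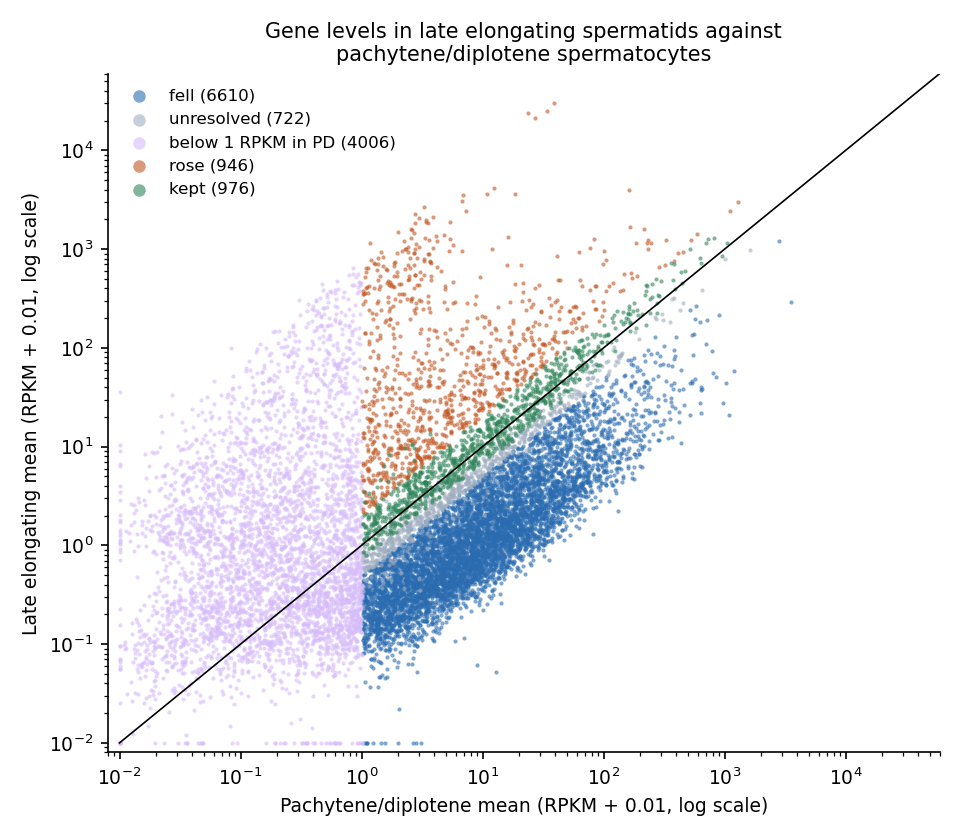
Mean level of each tested gene in pachytene/diplotene spermatocytes (x axis) and late elongating spermatids (y axis), in RPKM plus 0.01 on log scales, with 1 point per gene coloured by its class and the line of equal levels. The 6610 genes that fell form a band below the line, the 976 kept genes lie along it, and the 946 risen genes lie above it, up to Prm1, Prm2, Tnp1 and Tnp2 at the top.

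A fall was seldom a disappearance. The genes that fell had a median of 12.3% of their PD level left in LES, with quartiles of 7.54% and 22.0%. Falls of at least 3 log2 units were seen for 3381 genes and falls of at least 5 for 149. A mean of at least 1 RPKM remained for 3425 of the 6610, and 98 were under 0.1 RPKM. Of 1589 genes with at least 32 RPKM in PD, 99 in 100 had more than 2.82% of the PD level in LES, and the median was 15.3%. In the other direction, of 1265 genes with at least 32 RPKM in LES, 99 in 100 had more than 0.124% of the LES level in PD. The remaining RNA differed between LES libraries: replicate 3 had the highest value of the 3 for 5541 of the genes that fell and replicate 2 the lowest for 5114, with medians of 1.003, 0.797 and 1.36 RPKM in replicates 1 to 3. The kept genes showed no such order, with medians of 9.995, 10.05 and 10.5 RPKM. Whether the remaining RNA of fallen genes came from the spermatids or from other cells in the sort was not tested.

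Fallen genes gave up most of their share of reads and risen genes took most of the library in LES, while kept genes held a similar share in both. Since the classes were defined by the change between these same libraries, the direction of these shifts follows from the choice. Only their size is described here. Of all reads in genes, those that fell held 73.3%, 73.6% and 73.4% in PD and 9.49%, 8.48% and 11.05% in LES. Genes that rose from at least 1 RPKM took 6.65%, 6.56% and 6.90% in PD and 59.4%, 60.02% and 58.0% in LES. Genes below 1 RPKM in PD went from 0.667%, 0.730% and 0.702% to 13.6%, 13.7% and 13.2%. The kept genes took 12.7%, 12.4% and 12.4% in PD and 13.6%, 13.9% and 13.6% in LES. The 20 most abundant genes of a library held 6.31%, 6.33% and 6.44% in PD and 16.6%, 17.02% and 16.2% in LES.

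**Figure D2:**
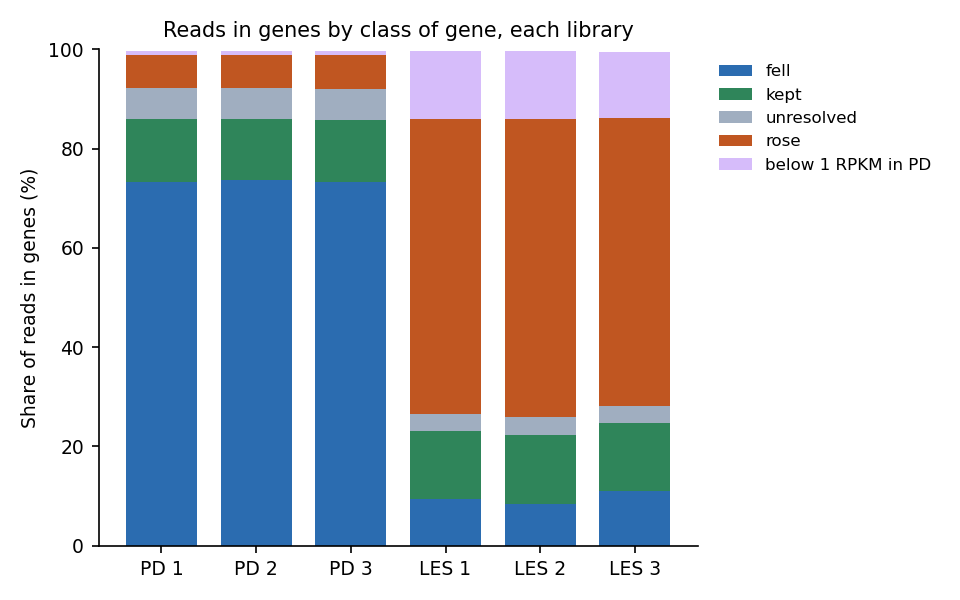
Share of the reads in genes (y axis, in percent) taken by each class of gene, with 1 stacked bar for each of the 6 libraries; the small rest of each bar belongs to genes not tested. The fallen class takes 73.3% to 73.6% in PD and 8.48% to 11.05% in LES, and the kept class stays between 12.4% and 13.9% in all 6 libraries. The classes were chosen on these libraries, so the direction of the shifts follows from the choice.

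The classes parted at different stages. In LZ the median levels of kept, fallen and risen genes were close, at 7.76, 7.23 and 6.91 RPKM. In PD they were 9.15, 8.59 and 3.58 RPKM, in RS 11.7, 6.20 and 17.6, in EES 10.96, 1.24 and 56.2, and in LES 10.1, 1.06 and 51.2. The fallen genes thus had 6.20 RPKM left in round spermatids and 1.24 RPKM in early elongating spermatids. The PrmES library, sorted by another signal, had medians of 9.51, 1.39 and 48.8 RPKM for these classes. Since classes were chosen on PD and LES, the order of their medians there follows from the choice.

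**Figure D3:**
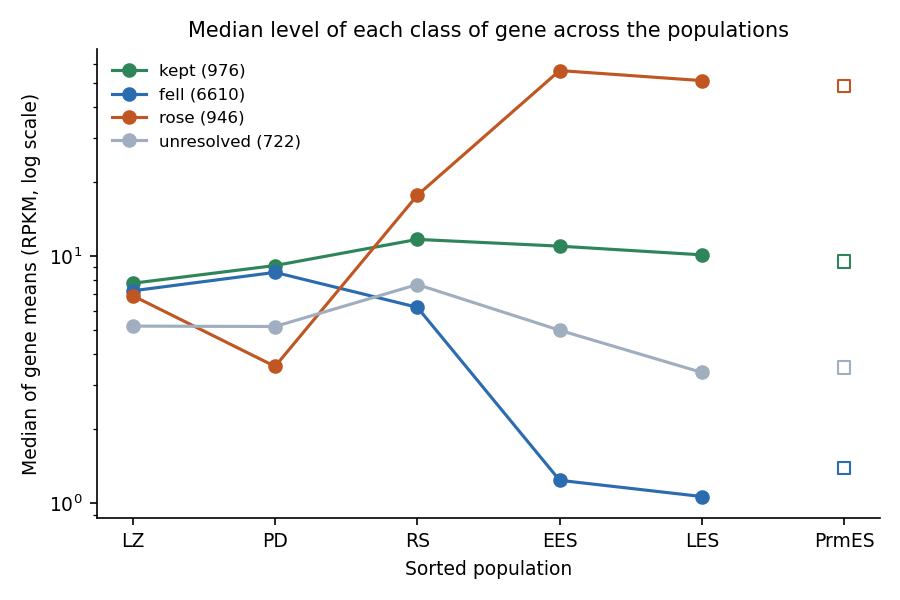
Median over genes of the mean level (y axis, RPKM on a log scale) of each class across the sorted populations (x axis), with the single PrmES library as open squares. Kept genes stay between 7.76 and 11.7 RPKM, fallen genes drop between round spermatids (6.20 RPKM) and early elongating spermatids (1.24 RPKM), and risen genes are at 3.58 RPKM in PD and 51.2 RPKM in LES.

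The 8 largest falls were taken from protein-coding genes with at least 32 RPKM in PD and no overlap between PD and LES libraries. Genes with clone-based names were passed over. Pou5f2, a POU-domain transcription factor of germ cells (chromosome 13, 78024902 to 78026296), was at 131, 121 and 141 RPKM in PD and 2.33, 1.13 and 3.26 RPKM in LES. H1f6, the testis linker histone H1t (chromosome 13, 23695811 to 23696545), was at 1339, 1174 and 738 RPKM in PD and 17.4, 8.5 and 36.8 RPKM in LES. Every PD library was more than 10 times above every LES library for both genes, and LES replicate 2 was lowest for both. The log2 fold changes were −5.99 ± 0.56 for Pou5f2 (adjusted p = 4.74e-07) and −5.90 ± 0.60 for H1f6 (adjusted p = 9.88e-07). Cks2, a partner of cyclin-dependent kinases needed for the meiotic divisions (chromosome 13, 51645232 to 51650662), was at 122, 114 and 96.4 RPKM in PD and 2.5, 1.11 and 4.87 RPKM in LES (−5.52 ± 0.47, adjusted p = 1.88e-07). Slc2a3, a glucose transporter (chromosome 6, 122727809 to 122802363), was at 419, 428 and 464 RPKM in PD and 10.7, 5.53 and 16.2 RPKM in LES (−5.47 ± 0.68, adjusted p = 6.63e-06). Both had their highest LES value in replicate 3. The other 4 of the 8 largest falls at 32 RPKM or more were Speer1 (−5.62 ± 0.97), the Cdc42 effector Cdc42ep3 (−5.48 ± 0.83), the phosphatase regulator Ppp1r27 (−5.43 ± 0.62) and the RING-finger gene Rnf166 (−5.39 ± 0.60). They differed in the stage of loss: in round spermatids Pou5f2 was at 3.23 ± 0.331 RPKM and H1f6 at 11.1 ± 2.37, whereas Slc2a3 was still at 184 ± 14.8 and Ppp1r27 at 25.9 ± 1.55.

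Abundant spermatocyte transcripts were also kept. Meig1, which takes part in cargo transport along the manchette (chromosome 2, 3409043 to 3422648), was at 1078, 1012 and 1048 RPKM in PD and 1291, 1079 and 1070.5 RPKM in LES, and its libraries overlapped. Its log2 fold change was 0.13 ± 0.37 with a 95% interval of −0.66 to 0.92. Pgam2, a phosphoglycerate mutase of glycolysis (chromosome 11, 5801637 to 5803796), was at 785, 718 and 701 RPKM in PD and 1331, 1290.3 and 1220.2 RPKM in LES (0.80 ± 0.40, interval −0.06 to 1.67). Its LES libraries were all above its PD libraries, by less than the threshold for a rise. Eef2, the elongation factor of translation (chromosome 10, 81176631 to 81182509), was at 500, 466 and 455 RPKM in PD and 605, 662 and 549 RPKM in LES (0.35 ± 0.20, interval −0.08 to 0.78). Hspb9, a small heat shock protein of the testis, went from 817 ± 107 RPKM in PD to 1284 ± 105 in LES (0.66 ± 0.37), and the beta-tubulin Tubb4b from 632 ± 53.2 RPKM in PD to 722 ± 6.71 in LES (0.19 ± 0.20). The LIM-domain gene Fhl4 (0.70 ± 0.33), the small membrane protein gene Smim24 (0.39 ± 0.46) and the lectin-family gene Clec2m (0.96 ± 0.40) complete the 8 kept genes with the highest PD level among those that had risen from LZ to PD. The PrmES library had 2366 RPKM of Meig1, 843 of Pgam2, 664 of Eef2 and 247 of Hspb9. Of these 8 genes, 7 had LES libraries all above PD libraries. No overlap in either direction was found for 597 of the 976 kept genes, a lower share than the 89.9% of all tested genes. With quantile normalization all 8 had negative fold changes, and Meig1 and Tubb4b fell, with log2 fold changes of −1.38 and −1.14.

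The kept genes had log2 fold changes with a median of 0.22, and 5 in 100 were under −0.44 and 5 in 100 over 0.94. The interval lay wholly between −1 and 1 for 644 of the 976, while 332 had an upper bound of 1 or more, among them 21 with an estimate over 1 that did not pass the test. Membership depended on the scale: with median centring 1561 genes were kept, of which 125 were among the 976, and with quantile normalization 1607, of which 417 were. It also depended on the libraries that share the estimate of spread. With PD and LES libraries only 1215 genes were kept, of which 954 were among the 976. Without LZ replicate 3 and EES replicate 2 there were 1204, of which 958 were. EES replicate 2 had 9027 genes at 1 RPKM, against 6580 and 7258 in replicates 1 and 3. LZ replicate 3 had 64.9% of its reads in genes, against 56.0% and 48.4% in replicates 1 and 2.

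**Figure D4:**
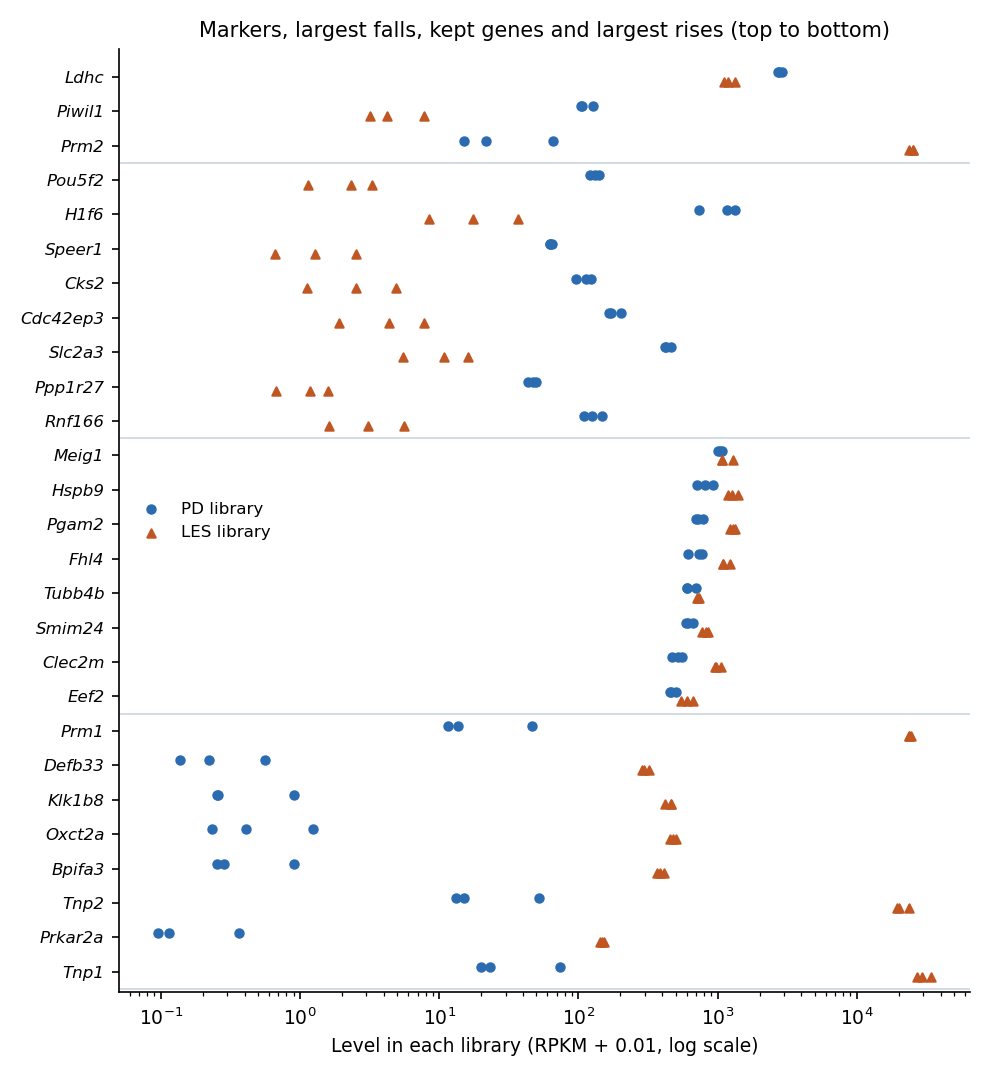
Level of the marker genes, the 8 largest falls, the 8 kept genes and the 8 largest rises in each library (x axis, RPKM plus 0.01 on a log scale), with circles for PD libraries, triangles for LES libraries and 1 row per gene. The fallen and risen genes, which were chosen for large changes without overlap, lie far apart in the populations. Of the 8 kept genes 7 (all but Meig1) also show no overlap but lie closer together. PD replicate 3 is the rightmost circle in all 8 of the largest rises.

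The 8 largest rises at 32 RPKM or more held Prm1, Tnp1 and Tnp2, which package spermatid DNA, and 5 genes with other roles. Prm1, the major protamine (chromosome 16, 10796332 to 10796823), was at 13.6, 11.6 and 46.2 RPKM in PD and 23810, 24591 and 23495 RPKM in LES (10.27 ± 0.50, adjusted p = 8.13e-10). The transition protein Tnp2 was at 15.2, 13.3 and 52.2 RPKM in PD and 20083, 23574 and 19522 RPKM in LES (9.90 ± 0.50, adjusted p = 1.1e-09), and Tnp1 went from 38.9 ± 30.2 RPKM in PD to 30088 ± 3673 in LES (9.85 ± 0.48). In these genes the LES libraries differed little and PD replicate 3 had the highest PD value. Defb33, a beta-defensin (chromosome 8, 20892667 to 20897723), was at 0.129, 0.212 and 0.55 RPKM in PD and 324, 288 and 295 RPKM in LES (10.19 ± 0.49, adjusted p = 6.96e-10). Oxct2a, a testis enzyme of ketone body use (chromosome 4, 123321875 to 123323679), went from 0.618 ± 0.536 RPKM in PD to 479 ± 20.6 in LES (9.93 ± 0.53), and Prkar2a, a regulatory subunit of protein kinase A, from 0.183 ± 0.152 RPKM in PD to 148 ± 5.21 in LES (9.86 ± 0.46). The kallikrein Klk1b8 (10.17 ± 0.52) and Bpifa3, of the family of lipid-binding BPI proteins (9.90 ± 0.49), were the other 2 of the 8. The PD values of Defb33, Oxct2a, Prkar2a, Klk1b8 and Bpifa3 were each below 1 RPKM on average, so their fold changes rest on small PD values that were highest in replicate 3.

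Promoters of kept and changed genes were read for the cAMP response element (CRE), the site of the CREB and CREM factors that drive many spermatid genes. RefSeq windows of 250 bases before the gene start (GRCm38.p6) were found for 9547 of the tested protein-coding genes, 12072 windows in all, since a gene can have several starts. The full site TGACGTCA, which is its own reverse complement, was in 2.71% of these windows and in 1.55% of all 32851 windows of the table. It was in 40 of 931 windows of kept genes (4.30%), in 184 of 6533 windows of genes that fell (2.82%) and in 70 of 2970 windows of genes that rose (2.36%). The core TGACG, on either strand and including the full sites, was in 31.5%, 27.5% and 23.6% of the windows of these 3 classes, against 26.3% of those of tested protein-coding genes and 17.8% of all windows. A TATA box (TATAAA, on either strand) was in 5.91%, 6.26% and 7.88% (6.87% and 12.4%), and the RFX core (GTTGCC, on either strand) in 11.5%, 10.8% and 13.3% (11.6% and 10.4%). Mean GC content was 60.9% in kept, 59.6% in fallen and 56.9% in risen windows. These are counts of letters with no test, and a match is not evidence of binding.

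To show what such windows look like, 4 are printed 5′ to 3′ on the strand of the gene, with the CRE in capitals. They belong to the most abundant genes of their class with 1 RefSeq start and a full site, and were chosen after the motif search. The kept genes are Rpl26, of the large ribosomal subunit, and Tesk1, a testis kinase; Mlf1 rose, and Phospho2, a phosphatase gene, fell.
Rpl26, chr11:68901316-68901565, plus strand: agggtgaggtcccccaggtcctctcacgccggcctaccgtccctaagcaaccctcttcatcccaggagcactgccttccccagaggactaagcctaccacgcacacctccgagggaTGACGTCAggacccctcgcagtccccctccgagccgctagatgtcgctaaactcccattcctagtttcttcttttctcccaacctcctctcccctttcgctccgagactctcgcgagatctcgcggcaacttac
Tesk1, chr4:43442027-43442276, plus strand: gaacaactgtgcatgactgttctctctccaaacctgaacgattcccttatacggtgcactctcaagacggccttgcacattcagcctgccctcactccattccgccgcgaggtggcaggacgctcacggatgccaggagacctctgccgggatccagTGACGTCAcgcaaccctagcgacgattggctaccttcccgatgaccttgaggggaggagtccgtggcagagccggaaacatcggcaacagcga
Mlf1, chr3:67373847-67374096, plus strand: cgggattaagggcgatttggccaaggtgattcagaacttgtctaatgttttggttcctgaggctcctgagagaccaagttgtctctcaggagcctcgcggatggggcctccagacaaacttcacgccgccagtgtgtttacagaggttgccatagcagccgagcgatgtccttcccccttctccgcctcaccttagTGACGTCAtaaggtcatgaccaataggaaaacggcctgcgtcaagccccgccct
Phospho2, chr2:69789487-69789736, plus strand: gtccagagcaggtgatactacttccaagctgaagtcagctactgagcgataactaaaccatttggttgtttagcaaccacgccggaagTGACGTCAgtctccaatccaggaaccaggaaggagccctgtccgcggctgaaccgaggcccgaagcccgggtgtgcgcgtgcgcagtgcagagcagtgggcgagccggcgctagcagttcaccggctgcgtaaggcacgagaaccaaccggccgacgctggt
The site began 134 bases before the gene start in Rpl26, 93 in Tesk1, 54 in Mlf1 and 162 in Phospho2. Rpl26 was at 438 ± 25.9 RPKM in PD and 587 ± 57 in LES (log2 fold change 0.42 ± 0.18) and Tesk1 at 159 ± 9.3 and 222 ± 17.4 (0.48 ± 0.30). Mlf1 rose from 83.2 ± 7.48 RPKM in PD to 1258 ± 44.9 in LES (3.92 ± 0.25, adjusted p = 9.84e-09). Phospho2 fell from 201 ± 18.7 RPKM in PD to 10.5 ± 4.001 in LES (−4.33 ± 0.64, adjusted p = 2.78e-05), so the same site was present in windows of all 3 classes.

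Genes of meiotic division were nearly all lower. Of 34 tested genes of meiotic division and the G2/M transition 31 fell and 1 rose, none of the 32 at 1 RPKM or more in PD was kept, and the median was −3.84 (−2.38 relative to all genes). Cdc20, the activator of the anaphase-promoting complex, was at 133, 122 and 125 RPKM in PD and 4.25, 1.83 and 7.24 RPKM in LES (−5.04 ± 0.67, adjusted p = 1.09e-05), and the centrosomal kinase Nek2 went from 128 ± 6.5 RPKM in PD to 4.63 ± 2.1 in LES (−4.89 ± 0.41). In round spermatids they were still at 144 ± 26.6 and 122 ± 15.1 RPKM. Aurkc, the Aurora kinase of meiosis, went from 17.7 ± 1.25 RPKM in PD to 0.639 ± 0.152 in LES (−4.80 ± 0.77) and cyclin A1, Ccna1, from 112 ± 24.3 RPKM in PD to 17.7 ± 1.9 in LES (−2.64 ± 0.34). The exception was the phosphatase gene Cdc25c, from 1.34 ± 0.311 RPKM in PD to 5.2 ± 0.368 in LES (1.97 ± 0.27).

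In the list of recombination and crossover genes 21 of 30 fell and 2 rose (median −2.77, relative −1.31), and 1 of 23 was kept. Among all tested genes 54.3% fell and 24.5% rose, and 10.5% of those at 1 RPKM or more in PD were kept. Spo11, which cuts DNA to start recombination, was at 29.6, 28.6 and 26.7 RPKM in PD and 1.08, 0.671 and 1.79 RPKM in LES (−4.68 ± 0.64, adjusted p = 1.51e-05). Iho1, a partner in break formation, fell by 4.91 on the log2 scale and Terb2, of the telomere attachment complex, by 4.62. The crossover factor Ccnb1ip1, the most abundant of the list in PD, went from 360.5 ± 199 RPKM in PD to 30.7 ± 25.2 in LES (−3.70 ± 0.82). The endonuclease gene Mus81 was kept, at 8.78 ± 0.368 and 6.77 ± 0.382 RPKM. The risen genes were Dmc1 (4.03 ± 0.27) and X-linked Tex11 (2.93 ± 0.31), with LES means of 2.02 and 1.33 RPKM, and Dmc1 is also 1 of the leptotene/zygotene markers above.

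Genes of the synaptonemal complex and meiotic cohesin, which hold paired chromosomes, split by subunit. Here 9 of 15 fell, 3 rose and 2 of 12 were kept (median −1.58, relative −0.12), near the 54.3% fallen and 24.5% risen of all tested genes, whereas median centring gave 5 rises and 5 falls. Sycp2, of the lateral element, was at 87.3, 92 and 95.9 RPKM in PD and 6.41, 5.78 and 11.2 RPKM in LES (−3.62 ± 0.36), and the cohesin subunit Stag3 went from 130.3 ± 7.67 RPKM in PD to 10.7 ± 2.14 in LES (−3.63 ± 0.54). In the central element, Syce2 was at 5.84, 4.94 and 3.86 RPKM in PD and 140.2, 137 and 145 RPKM in LES (4.87 ± 0.24, adjusted p = 8.65e-10), so all LES libraries were far above all PD libraries, and Syce3 was kept at 49.2, 39.4 and 29.5 RPKM in PD and 56, 49.3 and 37.5 in LES. Syce1 went from 351 ± 23 RPKM in PD to 181 ± 0.316 in LES and was unresolved (−0.95 ± 0.25). In the PrmES library Syce2 was at 115 and Syce3 at 53.4 RPKM.

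The piRNA pathway, which silences transposons and cleaves transcripts with small RNAs bound to PIWI proteins, fell in 20 of 24 genes and rose in 1 (median −3.19, relative −1.73). Pld6, a mitochondrial nuclease of piRNA biogenesis, was at 56.6, 58.5 and 47.7 RPKM in PD and 1.49, 1.16 and 2.7 RPKM in LES (−5.01 ± 0.48, adjusted p = 5.61e-07). The Tudor proteins Tdrd5 (−4.43 ± 0.36) and Tdrd6 (−4.31 ± 0.81) fell as well, and Mael, of germ granules, fell from 710 ± 95.6 RPKM in PD to 191 ± 19.6 in LES (−1.89 ± 0.37). Tdrkh, which recruits PIWI proteins to mitochondria, went the other way and was at 6.19, 6.09 and 5.47 RPKM in PD and 303, 277 and 286 RPKM in LES (5.61 ± 0.25, adjusted p = 4.76e-10). Its position (chromosome 3, 94413243 to 94434854) overlaps that of Oaz3 (94433387 to 94436651), which was at 4129.7 RPKM in LES. Without a known strand setting, reads of Oaz3 may be counted for Tdrkh, and their part in its rise was not tested. Tex15 met the rule for kept at 1.03 ± 0.315 RPKM in PD and 2.74 ± 0.518 in LES, with a wide interval of −0.23 to 3.10.

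Genes for making and processing RNA were nearly all lower. Among RNA polymerase II subunits 12 of 13 fell and 0 rose (limma; 0 also at an unadjusted p under 0.05 and with limma-voom; median −2.56, relative −1.11). The subunits Polr2c and Polr2b went from 4.84 ± 1.06 RPKM in PD to 0.256 ± 0.112 in LES (−4.26 ± 0.50) and from 14.3 ± 1.37 RPKM in PD to 1.17 ± 0.775 in LES (−3.79 ± 0.41). Among splicing factors 42 of 46 fell and 2 rose (median −3.44, relative −1.99), and 0 of 45 were kept. Sf3a3, of the U2 particle, was at 36, 34.5 and 33.5 RPKM in PD and 1.44, 0.702 and 2.52 RPKM in LES (−4.65 ± 0.93), with no overlap. The 2 that rose were core Sm genes of splicing particles, the imprinted Snrpn at 0.0919, 0.197 and 0.119 RPKM in PD and 9.22, 9.07 and 10.2 RPKM in LES (6.09 ± 0.37, adjusted p = 6.23e-09) and Snrpd2 from 59.5 ± 11.1 RPKM in PD to 160.2 ± 20.6 in LES (1.44 ± 0.22). Snrpd2 was chosen for mention after its value was seen.

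Transcription regulators of germ cells divided evenly. Of 28 tested 12 fell, 10 rose and 0 of 21 were kept (median −0.67, relative 0.79), with 11 rises, 10 falls and 6 kept under median centring, and 4 kept with quantile normalization and also without LZ replicate 3 and EES replicate 2. Across all tested genes 54.3% fell and 24.5% rose. Beside Pou5f2, the bHLH factor Mesp1 was at 127, 116 and 116 RPKM in PD and 4.23, 2.38 and 5.55 RPKM in LES (−4.96 ± 0.74) and the TFIID subunit gene Taf7l2 went from 153 ± 10.6 RPKM in PD to 7.42 ± 2.83 in LES (−4.43 ± 0.56). Mybl1 (A-MYB), the activator of pachytene genes, went from 27.2 ± 1.86 RPKM in PD to 1.92 ± 0.687 in LES (−3.87 ± 0.39). Crem, the activator of spermatid genes, was unresolved at 24.9 ± 1.71 and 16.1 ± 1.39 RPKM (−0.63 ± 0.37). Spz1, a bHLH-zip protein of the testis, was at 8.24, 7.03 and 17 RPKM in PD and 3676, 3394 and 3804 RPKM in LES (8.50 ± 0.35, adjusted p = 3.51e-10), and Fhl5, the coactivator of CREM, went from 1.69 ± 0.801 RPKM in PD to 256 ± 8.98 in LES (7.33 ± 0.34).

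Genes of mRNA storage and translation control fell in 29 of 45, rose in 7 and were kept in 3 of 40 (median −1.68, relative −0.22). Of all tested genes 54.3% fell and 24.5% rose. Pabpc6, a poly(A)-binding protein, was at 361, 337 and 409.6 RPKM in PD and 12.2, 6.54 and 18.5 RPKM in LES (−5.01 ± 0.58, adjusted p = 3.06e-06). The decay helicase Upf1 went from 48.4 ± 0.686 RPKM in PD to 2.87 ± 0.564 in LES (−4.09 ± 0.26). Ybx2 (MSY2), the germ-cell Y-box protein that coats stored messages, was kept with 339.7, 374 and 370.2 RPKM in PD and 661, 782 and 709 RPKM in LES (0.99 ± 0.36, interval 0.21 to 1.77). Its relatives Ybx1 (−2.51 ± 0.48) and Ybx3 (−1.77 ± 0.50) fell. Papolb, the testis poly(A) polymerase, was also kept (0.35 ± 0.30). Among the 7 that rose, Eif4g1, a scaffold of translation initiation, was at 3.12, 3.34 and 2.74 RPKM in PD and 64.1, 79.4 and 67 RPKM in LES (4.51 ± 0.18, adjusted p = 3.51e-10), and the cap-binding Eif4e went from 15.2 ± 0.499 RPKM in PD to 80.5 ± 4.11 in LES (2.41 ± 0.27). The poly(A) polymerase Tent5c went from 16.8 ± 3.34 RPKM in PD to 295 ± 8.95 in LES (4.15 ± 0.28) and Cpeb3, a cytoplasmic polyadenylation factor, from 0.202 ± 0.00453 RPKM in PD to 18.4 ± 3.14 in LES (6.43 ± 0.28). Several of these were named after their values were seen.

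Many cytosolic ribosomal protein genes were kept. Of 76 at 1 RPKM or more in PD 46 were kept, and of 80 tested 24 fell and 4 rose (median −0.18, relative 1.27). With median centring 44 rose, 11 fell and 18 were kept, and with quantile normalization 13 rose, 18 fell and 35 were kept. The group's summed level was 5573, 4909 and 4298 RPKM in PD and 4749, 4280.5 and 4570.4 RPKM in LES, which overlap. Rpl26 was at 465, 434 and 414 RPKM in PD and 633, 523 and 604 RPKM in LES, with LES above PD in every library by less than the threshold. Rplp0, of the stalk, went from 377 ± 34 RPKM in PD to 481 ± 18 in LES (0.36 ± 0.21) and Rpl8 from 239.8 ± 46.6 RPKM in PD to 227 ± 8.14 in LES (−0.06 ± 0.21), and both were kept. Rps27a, which is made as a fusion with ubiquitin, fell with 17.1, 16.6 and 18.3 RPKM in PD and 0.732, 0.391 and 1.6 RPKM in LES (−4.47 ± 0.46), as did Rpl14 (−3.48 ± 0.34) and the testis paralogue Rpl10l (−2.58 ± 0.42). Of the 4 that rose, Rps4x (5.52 ± 0.76), Rpl39 (5.47 ± 0.97) and Rpl10 (3.02 ± 0.58) are X-linked and stayed at 3.01, 1.33 and 0.738 RPKM in LES, and Rps20 went from 31.5 ± 2.22 RPKM in PD to 88.9 ± 4.6 in LES. Ribosomal protein genes have many processed copies in the genome, so single members are uncertain.

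Energy metabolism changed gene by gene along the glycolytic pathway. Of 20 sperm glycolysis genes 10 rose, 9 fell and 1 was kept (median 0.99, relative 2.45), with 9 and 9 when scaled to reads in genes. At the entry, the transporter Slc2a3 and the phosphofructokinases Pfkp (−4.00 ± 0.63) and Pfkm (−3.97 ± 0.52) fell, whereas hexokinase Hk1 rose from 21.8 ± 3.34 RPKM in PD to 455 ± 39.7 in LES (4.39 ± 0.32). In the middle, the sperm-specific Gapdhs was at 2.8, 3.05 and 6.43 RPKM in PD and 1383, 1485 and 1245 RPKM in LES (8.49 ± 0.36, adjusted p = 3.91e-10), and the aldolases Aldoart1 (7.66 ± 0.35) and Aldoart2 (7.74 ± 0.36) rose as well. Pgk2, the autosomal phosphoglycerate kinase of germ cells, was at 162, 141 and 189 RPKM in PD and 1682, 1572 and 1819 RPKM in LES (3.37 ± 0.30), Pgam2 was kept, and pyruvate kinase Pkm rose from 1.8 ± 0.21 RPKM in PD to 159 ± 7.97 in LES (6.46 ± 0.26). At the end, Pdha2 of pyruvate dehydrogenase (−3.61 ± 0.66), Ldhal6b (−3.12 ± 0.61) and Ldhc fell. Of 7 tested somatic counterparts 5 rose and 1 fell (median 2.09, relative 3.55), most from under 1 RPKM. Of all tested genes 24.5% rose. X-linked Pgk1 was at 0.0728 RPKM in PD and 1.03 in LES.

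The nuclear-encoded respiratory chain was lower, with 67 of 87 falling, 7 rising and 8 of 83 kept (median −2.30, relative −0.85). Testis isoforms were among the genes that fell. Cyct, the testis cytochrome c, was at 162, 138 and 126 RPKM in PD and 4.11, 1.57 and 7.43 RPKM in LES (−5.28 ± 1.02, adjusted p = 0.000294), and the oxidase subunits Cox7b2 and Cox8c went from 416 ± 53.8 RPKM in PD to 17.7 ± 10.8 in LES (−4.76 ± 0.79) and from 418 ± 51 RPKM in PD to 37.6 ± 7.21 in LES (−3.48 ± 0.60). Uqcc2, an assembly factor of complex III, was kept at 278 ± 41.4 and 283 ± 19 RPKM (0.04 ± 0.20), and Atp5h of the ATP synthase at 34.9 ± 3.7 and 31.7 ± 1.23 (−0.13 ± 0.21). Ndufa13 of complex I rose from 43 ± 5.62 RPKM in PD to 238 ± 12 in LES (2.48 ± 0.26).

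**Figure D5:**
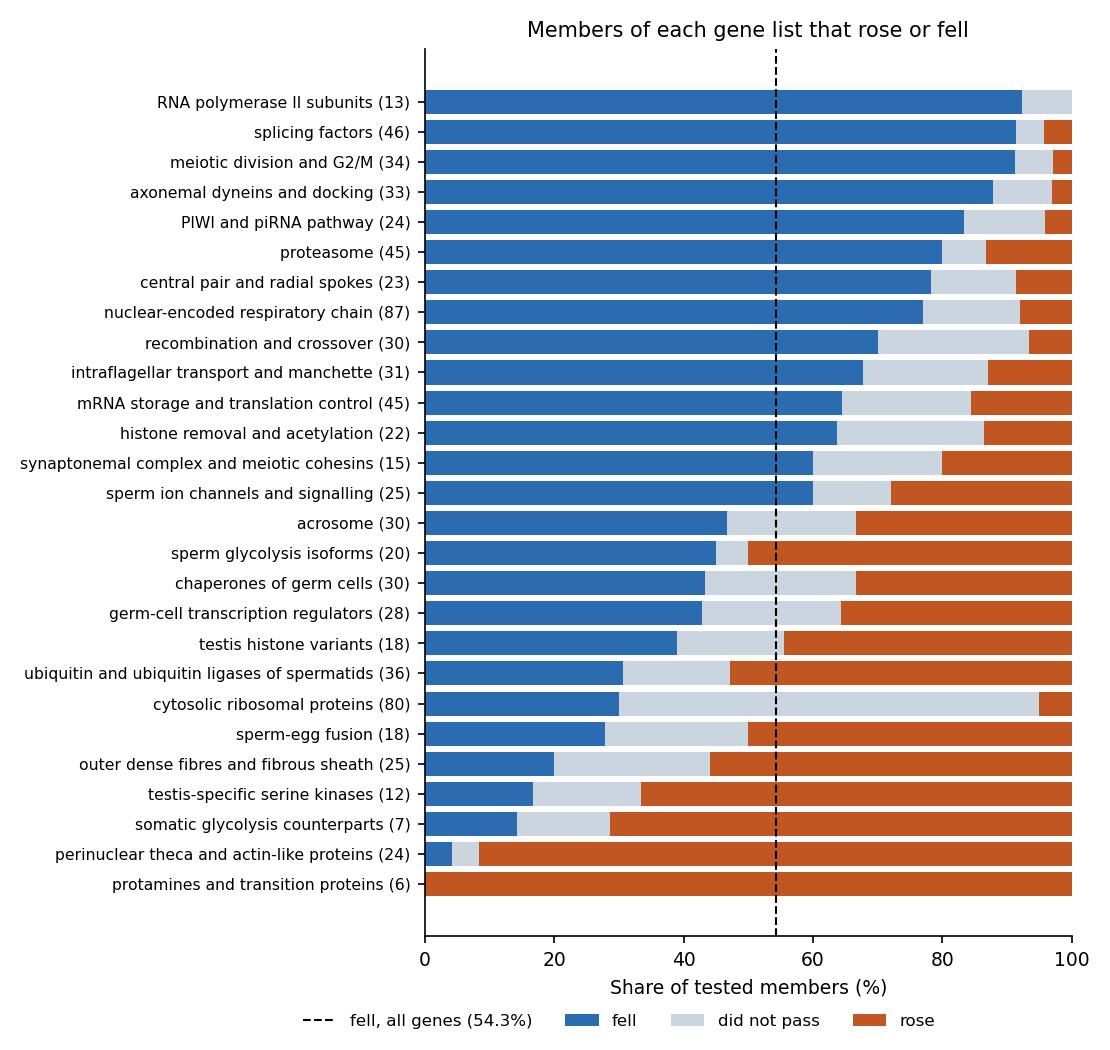
Share of the tested members of 27 gene lists (y axis, with the number tested) that fell, did not pass or rose (x axis, percent of tested members), sorted by the share that fell, with a dashed line at the 54.3% of all tested genes that fell. RNA polymerase II subunits (12 of 13 fell) stand at one end and protamines and transition proteins (6 of 6 rose) at the other.

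Chromatin genes changed in both directions. All 6 protamine and transition protein genes rose (median 9.83, relative 11.28), and H1f7, the linker histone of spermatids, was at 2.24, 2.24 and 6.06 RPKM in PD and 1785, 1931 and 1812 RPKM in LES (9.20 ± 0.41). Of 18 tested testis and replacement histones 8 rose and 7 fell (median −0.02, relative 1.43), against 24.5% risen and 54.3% fallen of all tested genes. Without LZ replicate 3 and EES replicate 2 the counts were 8 and 8. Beside H1f6, the testis H2B gene H2bc1 was at 1440.3, 1067 and 588 RPKM in PD and 27.3, 15.6 and 90.9 RPKM in LES (−4.84 ± 0.69) and its neighbour H2ac1 went from 111 ± 42.5 RPKM in PD to 7.3 ± 4.71 in LES (−4.06 ± 0.49). H2ax, which marks breaks and the sex body, went from 32.4 ± 7.53 RPKM in PD to 1.91 ± 1.25 in LES (−4.26 ± 0.47). H2al2a, a short histone of condensing spermatids, was at 1.41, 0.965 and 3.59 RPKM in PD and 1528, 1451 and 1482 RPKM in LES (9.77 ± 0.43, adjusted p = 4.49e-10), and H2bl1 went from 2.72 ± 1.42 RPKM in PD to 1467 ± 125 in LES (9.19 ± 0.36). Another short H2A variant, H2ab3, was unresolved at 1.47 RPKM in PD and 0.358 in LES (−2.09 ± 1.05). The X-linked H2al1 genes are near-identical copies, so single members are uncertain.

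Factors of histone removal and acetylation fell in 14 of 22 and rose in 3, and 2 of 18 were kept (median −1.30, relative 0.16, with 5 rises and 7 falls under median centring), shares near the 54.3% fallen and 10.5% kept of all genes. The acetyltransferase Kat5 was at 66, 57.1 and 55.9 RPKM in PD and 5.18, 4.34 and 5.46 RPKM in LES (−3.58 ± 0.26), and the deacetylase Hdac1 fell (−3.69 ± 0.70). Psme4 (PA200), the proteasome activator that degrades acetylated histones, was kept with 65.2, 60.1 and 78.3 RPKM in PD and 88, 112 and 104 RPKM in LES (0.58 ± 0.29). Cdyl, a chromodomain protein of spermatids, was at 0.5004, 0.558 and 0.806 RPKM in PD and 73.1, 69.9 and 45.6 RPKM in LES (6.64 ± 0.30, adjusted p = 4.76e-10), and Chd5, a remodeller needed for histone removal, went from 0.677 ± 0.285 RPKM in PD to 40.9 ± 11.7 in LES (5.95 ± 0.33).

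The parts of the sperm tail differed. The list of outer dense fibre and fibrous sheath genes, named for the layers around the axoneme, also holds tektins and Oaz3. Its members rose in 14 of 25 and fell in 5 (median 2.42, relative 3.88). Akap4, the X-linked main protein of the fibrous sheath, was at 4.43, 3.46 and 12.3 RPKM in PD and 3042, 3022 and 3242 RPKM in LES (9.07 ± 0.42, adjusted p = 5.18e-10). Odf1 went from 7.28 ± 5.69 RPKM in PD to 2421 ± 149 in LES (8.64 ± 0.46) and Oaz3 from 12.4 ± 6.4 RPKM in PD to 4129.7 ± 168 in LES (8.50 ± 0.37). Among the filament-forming tektins of this list Tekt1 (−2.40 ± 0.67), Tekt3 (−3.27 ± 0.83) and Tekt4 (−2.47 ± 1.03) fell and Tekt5 was kept (0.78 ± 0.35). Odf4 was kept at 177 ± 12.4 and 234 ± 6.39 RPKM.

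Axonemal genes, which build the motile microtubule core, fell. Of 33 axonemal dynein and docking genes 29 fell, 1 rose and 0 of 32 were kept (median −3.35, relative −1.89). Zmynd10, a dynein assembly factor, was at 362, 343 and 319 RPKM in PD and 12, 8.49 and 16 RPKM in LES (−4.86 ± 0.63, adjusted p = 9.6e-06). The heavy chain Dnah8 went from 172 ± 16.2 RPKM in PD to 13.9 ± 2.54 in LES (−3.64 ± 0.51) and Dnah17 from 57.4 ± 4.29 RPKM in PD to 4.87 ± 0.467 in LES (−3.56 ± 0.54), and Dnah3 rose from 0.731 ± 0.297 RPKM in PD to 2.72 ± 0.195 in LES (1.97 ± 0.74). The call for Dnah3 was lost without PD replicate 1 (limma's adjusted p = 0.0931), LES replicate 2 (0.0549) or LES replicate 3 (0.0533), and with a pseudocount of 1 RPKM (0.107). It held with PD and LES libraries only (limma's adjusted p = 0.00108) and without LZ replicate 3 and EES replicate 2 (0.000123). Central pair and radial spoke genes fell in 18 of 23 and rose in 2 (median −2.48, relative −1.03). The spoke head gene Rsph1 was at 713, 813 and 863 RPKM in PD and 53.4, 43.3 and 69.8 RPKM in LES (−3.87 ± 0.49). Hydin, of the central pair, was the 1 kept member, at 11.6 ± 1.2 and 11 ± 1.11 RPKM (−0.08 ± 0.40), and it rose with median centring (1.23). The paralogues Spag6l and Spag6 moved apart, Spag6l falling (−4.08 ± 0.63) and Spag6 rising from 1.65 ± 1.03 RPKM in PD to 8.51 ± 1.13 in LES (2.52 ± 0.77).

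Genes of intraflagellar transport, which carries parts into the growing tail, and of the manchette, the microtubule skirt that shapes the head, fell in 21 of 31, rose in 4 and were kept in 5 of 30 (median −1.81, relative −0.36). Over all tested genes the shares were 54.3% fallen and 24.5% risen. The transport genes Ift20 (−4.65 ± 0.48) and Ttc21b (−4.64 ± 0.75) fell. Among the kept genes were Meig1, described above, the ubiquitin-conjugating Ube2b, with 43.5, 37.4 and 33.7 RPKM in PD and 31.1, 27.9 and 29.6 RPKM in LES (−0.37 ± 0.23), and Ift172 (0.47 ± 0.36). Spem1, which helps remove spermatid cytoplasm, was at 1.33, 1.33 and 5.67 RPKM in PD and 1858, 1791 and 1845 RPKM in LES (9.72 ± 0.52, adjusted p = 1.83e-09), and Hook1, a manchette linker, went from 17.9 ± 5.12 RPKM in PD to 189.8 ± 9.37 in LES (3.44 ± 0.30).

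In the head, acrosome genes fell in 14 of 30 and rose in 10 (median −0.33, relative 1.13), with 15 rises and 11 falls under median centring, 13 and 12 with quantile normalization, and 14 of each without LZ replicate 3 and EES replicate 2. The shares over all tested genes were 54.3% fallen and 24.5% risen. Zpbp2, a zona-binding protein, was at 236, 219.9 and 252 RPKM in PD and 12.4, 5.59 and 16.2 RPKM in LES (−4.50 ± 0.97) and had 309 ± 13.3 RPKM in round spermatids. The protease inhibitor Spink2 went from 535 ± 31.9 RPKM in PD to 44.6 ± 11.2 in LES (−3.61 ± 0.72) and proacrosin, Acr, from 63 ± 7.32 RPKM in PD to 5.75 ± 1.65 in LES (−3.48 ± 0.94). Sppl2c, an intramembrane protease, was at 0.506, 0.538 and 1.73 RPKM in PD and 414, 462 and 353 RPKM in LES (9.01 ± 0.46, adjusted p = 1.1e-09), and Crisp2 rose from a high PD level, from 597 ± 57.1 RPKM in PD to 1428 ± 149.6 in LES (1.26 ± 0.38). Gba2, a glucosylceramidase, was kept at 22.9 ± 3.13 and 20.9 ± 2.35 RPKM and rose with median centring (1.17).

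Of 18 sperm-egg fusion genes 9 rose and 5 fell (median 1.75, relative 3.21), against 24.5% risen and 54.3% fallen of all tested genes. The IZUMO family split: Izumo2 was at 0.665, 0.756 and 2.02 RPKM in PD and 265, 236 and 225 RPKM in LES (7.89 ± 0.35), Izumo3 went from 1.69 ± 0.691 RPKM in PD to 170.4 ± 9.29 in LES (6.72 ± 0.28), Izumo1, the ligand of the egg receptor, rose to 5.002 RPKM (3.12 ± 0.65), and Izumo4 fell from 42.1 ± 5.98 RPKM in PD to 1.91 ± 0.89 in LES (−4.56 ± 0.91). The ADAM surface proteins split too, with Adam2 falling from 349 ± 9.13 RPKM in PD to 22.2 ± 7.24 in LES (−4.03 ± 0.66) and Adam3 kept with 337, 319 and 481 RPKM in PD and 678, 747 and 716 RPKM in LES (0.94 ± 0.37). Perinuclear theca and actin-like genes, which join the nucleus, acrosome and tail, rose in 22 of 24 and fell in 1 (median 7.46, relative 8.92). Actrt2 was at 2.34, 2.19 and 5.71 RPKM in PD and 1965, 1937 and 1776 RPKM in LES (9.25 ± 0.38), and Spata3 went from 0.598 ± 0.462 RPKM in PD to 363 ± 4.16 in LES (9.48 ± 0.47). The 1 that fell was the centrin Cetn1, from 583 ± 27.4 RPKM in PD to 268 ± 31.1 in LES (−1.13 ± 0.42), and its fold change was 0.18 with median centring. The call for Cetn1 was lost without PD replicate 1 (limma's adjusted p = 0.0532) or LES replicate 3 (0.0662). It held with PD and LES libraries only (limma's adjusted p = 4.24e-05) and without LZ replicate 3 and EES replicate 2 (5.3e-06).

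Signalling genes were mixed. Sperm ion channels and their regulators fell in 15 of 25 and rose in 7 (median −2.54, relative −1.09). These counts are near the 54.3% fallen and 24.5% risen of all tested genes. Within the CatSper calcium channel, Catsper2 (−2.75 ± 0.47), Catsperb (−2.54 ± 0.53), Catsperd (−1.76 ± 0.32) and Catsperz (−2.87 ± 0.56) fell, and Catsper1, Catsper3 and Catsper4 rose to 4.27, 4.01 and 6.43 RPKM from about 1 RPKM or less. The exchanger Slc9c1 fell from 74.9 ± 12.1 RPKM in PD to 5.09 ± 1.72 in LES (−3.92 ± 0.80), and its partner, the soluble adenylyl cyclase Adcy10, rose from 32.1 ± 5.41 RPKM in PD to 109.6 ± 11.9 in LES (1.78 ± 0.32). Atp1a4, the sodium pump of sperm, was at 0.954, 1.14 and 3.42 RPKM in PD and 509, 599 and 491 RPKM in LES (8.41 ± 0.43, adjusted p = 1.19e-09). Testis-specific serine kinases and partners rose in 8 of 12 and fell in 2 (median 3.33, relative 4.79), led by Tssk6 with 0.742, 0.563 and 1.18 RPKM in PD and 403, 460.4 and 439 RPKM in LES (9.08 ± 0.43) and by Tssk2 from 3.85 ± 2.58 RPKM in PD to 1038 ± 75.6 in LES (8.26 ± 0.37).

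Proteasome genes mostly fell and ubiquitin genes of spermatids more often rose than fell. Of 45 proteasome genes 36 fell, 6 rose and 3 of 41 were kept (median −3.17, relative −1.71), against 54.3% fallen and 24.5% risen of all tested genes. Psma8, the core subunit of germ cells, was at 88.2, 78.8 and 64.7 RPKM in PD and 4.02, 1.55 and 6.69 RPKM in LES (−4.46 ± 0.54), and the lid deubiquitinase Psmd14 went from 19.96 ± 2.85 RPKM in PD to 1.04 ± 0.452 in LES (−4.33 ± 0.43). The inhibitor Psmf1 was at 10.9, 9.76 and 10.5 RPKM in PD and 209.8, 219 and 184 RPKM in LES (4.29 ± 0.26, adjusted p = 6.53e-09), and the core subunit Psma6 rose from 62.6 ± 7.86 RPKM in PD to 943 ± 75.2 in LES (3.92 ± 0.20), unlike its ring partners Psma1 (−3.35 ± 0.51) and Psma2 (−3.95 ± 0.59). Ubiquitin and ubiquitin ligase genes of spermatids rose in 19 of 36 and fell in 11 (median 1.83, relative 3.28). Rnf133, a testis ligase, was at 0.93, 0.4997 and 2.14 RPKM in PD and 807, 756 and 779 RPKM in LES (9.59 ± 0.44), and Klhl10, a cullin adaptor of spermatids, went from 2.99 ± 1.84 RPKM in PD to 430.1 ± 17.3 in LES (7.32 ± 0.37), while Marchf10 was kept (0.29 ± 0.42) and Marchf11 fell (−4.18 ± 0.97).

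Chaperone genes fell in 13 of 30 and rose in 10 (median −0.63, relative 0.83), with 12 rises and 10 falls under median centring. By comparison, 54.3% of all tested genes fell and 24.5% rose. Hspa2, the HSP70 of spermatocytes, was at 643, 621 and 669.7 RPKM in PD and 34.4, 24.9 and 53.3 RPKM in LES (−4.17 ± 0.75, adjusted p = 0.000166), and its spermatid relative Hspa1l at 1.96, 1.74 and 3.99 RPKM in PD and 1253, 1388 and 1273 RPKM in LES (9.09 ± 0.36). The endoplasmic reticulum chaperone Clgn fell from 183 ± 21.9 RPKM in PD to 12.8 ± 4.54 in LES (−3.90 ± 0.74) and its partner Calr3 rose from 0.597 ± 0.382 RPKM in PD to 69.3 ± 8.3 in LES. Dnajb8 was at 1.65, 1.32 and 4.79 RPKM in PD and 1660.4, 1449 and 1587 RPKM in LES (9.47 ± 0.46). LES libraries were all above PD libraries for these 3 risen genes and all below for the 2 that fell.

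Most tested sex-linked genes rose. Of 527 tested X-linked genes 405 rose (76.9%) and 5 fell (0.949%), and of 35 Y-linked genes 27 rose and 0 fell, against shares of 18.3% to 28.7% risen on the single autosomes. The 0 for the Y chromosome is limma's, and it was also 0 at an unadjusted p under 0.05 and with limma-voom. Of the 35 Y-linked genes 0 had a mean of 1 RPKM or more in PD, and their median PD level was 0.0309 RPKM. Most sex-linked genes thus passed the filter through other stages and had little room to fall. Their split into rises and falls follows in part from the filter. With quantile normalization 361 X-linked genes rose and 17 fell. The median log2 fold change was 2.86 on the X chromosome (4.32 relative to all genes) and 2.74 on the Y chromosome, and the median level of X-linked genes was 0.0536 RPKM in PD and 0.517 RPKM in LES. With a pseudocount of 1 RPKM 167 X-linked and 7 Y-linked genes rose, so most of the rises did not pass on that scale. Only 12 tested X-linked genes had 1 RPKM or more in PD: 10 rose, 1 fell, 0 were kept and H2ab3 was unresolved. Beside Akap4 and Tsga8 (5.11, 4.41 and 7.26 RPKM in PD and 19.6, 15.3 and 25.5 RPKM in LES, 1.85 ± 0.77), the risen genes include the histone gene H2ap from 1.49 ± 0.795 RPKM in PD to 837 ± 90.7 in LES (9.24 ± 0.39) and Cypt1, a cysteine-rich protein of the perinuclear theca, from 2.05 ± 1.7 RPKM in PD to 443 ± 56.6 in LES (8.06 ± 0.45). The 1 that fell was Ndufa1 of complex I, with 7.11, 5.93 and 3.98 RPKM in PD and 2.6, 1.72 and 3.67 RPKM in LES (−1.12 ± 0.32). The other 4 X-linked falls were of Fthl17d, Spin2d, Mageb2 and H2bfm, all under 1 RPKM in PD and named after their values were seen.

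Gene type and length also went with the direction. Of 1019 tested lncRNA genes 422 rose and 398 fell, and of 11698 protein-coding genes 2737 rose and 6493 fell. The lncRNA balance turned to 404 rises and 419 falls when scaled to reads in genes. The kept shares were 12.3% for lncRNA and 10.6% for protein-coding genes at 1 RPKM or more in PD. Of 72 snoRNA genes 0 rose (limma, also 0 at an unadjusted p under 0.05 and 0 with limma-voom) and 41 fell. The RNA components of RNase P, Rpph1 (from 3511 ± 1998 RPKM in PD to 290.4 ± 239 in LES, log2 fold change −3.75 ± 0.84), and of RNase MRP, Rmrp (from 546 ± 172 RPKM in PD to 84.6 ± 64 in LES, −2.89 ± 0.70), fell. These short RNAs varied widely between libraries of one population. Of genes with under 1 kb of exon 36.1% rose and 38.9% fell, and of those over 5 kb 19.2% rose and 58.9% fell. The kept share was between 9.64% and 11.4% in every length class.

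The de novo gene models, assembled by the authors from these reads, gave a similar division. Of 21515 tested models 9785 fell (45.5%), 6962 rose (32.4%), so 77.8% changed, and the libraries did not overlap for 88.6%. Among the 12252 at 1 RPKM or more in PD 8715 fell (71.1%), 1417 were kept (11.6%) and 1093 rose (8.92%). Reads summed over these models came to 86.8% to 90.8% of a PD library and 105% to 106% of a LES library, so some reads were counted for more than 1 model in LES. Loci with no GENCODE M21 gene at their position rose and fell in other proportions: of 1082 with several exons 676 rose and 249 fell, and of 1000 with 1 exon 322 rose and 318 fell, against 4143 rises and 7044 falls among 14216 multi-exon models on the strand of a known gene. The median PD level was 0.0568 RPKM for the unannotated multi-exon loci, 0.0618 for the single-exon ones and 2.48 for the models of known genes. Only 263 of the 1082 reached 1 RPKM in PD, and of these 212 fell and 3 rose. Loci low in PD mostly passed the filter through other stages, so the excess of rises follows in part from the filter. Of the unannotated loci at 1 RPKM or more in PD 30 of 471 were kept.

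Single loci without an annotated gene reached levels of ordinary genes. MSTRG.23199, with 1 exon on the minus strand (chromosome 7, 140791992 to 140792507), had 0 reads in all 3 PD libraries and 39.9, 37.5 and 36.8 RPKM in LES, where the libraries together held 6125 reads. MSTRG.568, with 1 exon on the minus strand (chromosome 1, 75335244 to 75335496), had 4 reads in PD, all in replicate 3, and 40.7, 36.4 and 28.1 RPKM in LES, and MSTRG.576 (chromosome 1, 75606005 to 75606647) likewise 4 reads in PD and 24.7, 24.1 and 19.2 RPKM in LES. The largest falls were of MSTRG.756, with 2 exons on the minus strand (chromosome 1, 92991575 to 92997565), with 24, 25.9 and 27.3 RPKM in PD and 0.58, 0.532 and 0.865 RPKM in LES (−5.30 ± 0.65, adjusted p = 4.81e-06), and of MSTRG.22320 (chromosome 7, 60973477 to 60978048), with 23.6, 19.5 and 15.3 RPKM in PD and 0.537, 0.14 and 0.863 RPKM in LES (−5.53 ± 0.75). MSTRG.26499, an X-linked locus with 1 exon (chromosome X, 48009973 to 48010471), was at 94.7, 103 and 89.7 RPKM in PD and 3.17, 1.36 and 3.5 RPKM in LES (−5.27 ± 0.42, adjusted p = 7.89e-08). Its PD level was above that of every tested X-linked gene of the gene table, the highest of which was Akap4, and all PD libraries lay above all LES libraries. The positions are of the deposited assembly (builds GRCm38 and mm10 in the submitters' processing notes).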

How the data were processed

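Sorted mouse germ cells were profiled by RNA sequencing, and groups were taken from the sample titles. Per the submitters' processing notes, the authors trimmed reads with Trim Galore and aligned them with STAR (builds GRCm38 and mm10); their versions, the counter, the strand setting and the annotation were not given in the sources used here, so reads of overlapping and antisense genes cannot be told apart. The deposited values are log2 values: log2 of 100 times RPKM plus 1. Undoing the log and the length recovered whole reads for 100% of values of both tables (within 0.01 read). Library totals were fitted to the de novo values, with model lengths from the assembly. Exon lengths of the gene table were inferred as the smallest that gave whole reads in every library. The 100% for that table therefore follows from the search, and the length classes use these inferred lengths. The deposited assembly (unit other: transcript and exon positions) came, per the file headers, from StringTie 1.3.4d.

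Gene positions and symbols came from RefSeq (GRCm38.p6; 24570 of 24594 IDs matched), and de novo models were compared with GENCODE M21. Genes with at least 1 RPKM in 3 of 15 libraries were fitted with limma 3.58.1 (R 4.3.3; eBayes with trend) over the 15 libraries of 5 stages, with LES minus PD as the contrast. Comparisons between genes use RPKM, which is per length.

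Members of 30 gene lists (830 of 884 tested) were counted without a set test. The members and lists were chosen with earlier results of these data known. Named genes are the markers; the 8 largest falls, rises and kept genes at high level (32 RPKM, for kept genes the highest PD level); up to 3 members per list in the main direction, 1 in the other and 1 kept; and 3 loci each way at 8 RPKM or more. The 8 largest falls and rises were taken from protein-coding genes whose PD and LES libraries did not overlap. Clone-based names (Gm and Rik) were passed over there and among the 8 kept genes. Other genes were named after their values were seen. Alternatives changed the fit, filter, pseudocount, scaling, test and libraries. Intervals and SDs cover the spread of these libraries only. The juvenile round spermatid library was not used here. Some members of the lists are counted but not reported here by name.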

Additional observations from a re-analysis of the deposited data

How the results depend on the processing

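Of the counts of calls, 6 moved by more than 1.5 times. With no filter on low values 5865 genes rose. Kept genes numbered 1511 with a pseudocount of 1 RPKM, 1561 with median centring and 1607 with quantile normalization, and risen genes at 1 RPKM or more in PD 1859 with median centring and 1449 with quantile normalization. Of 146 named genes under 16 alternatives, 28 values of 20 genes changed sign, most of them of kept genes under quantile normalization, and 6 of these had a call on either side: Ldhc (0.0814), Hydin (1.23), Gba2 (1.17) and Cetn1 (0.18) with median centring, and Meig1 (−1.38) and Tubb4b (−1.14) with quantile normalization. A call was lost 23 times, in 12 genes, of which 7 times for Ldhc and 4 times for Dnah3. Leaving out 1 PD or LES library at a time gave 3084 to 3217 rises and 6973 to 7245 falls, 889 to 941 kept, 6463 to 6600 fallen and 923 to 943 risen genes at 1 RPKM or more in PD, and 6722 to 6889 rises and 9436 to 9793 falls of de novo models. With the replicate number as a block 3237 genes rose, 7178 fell and 971 were kept (de novo 6955 and 9770), and same-numbered PD and LES libraries did not deviate together (correlations −0.04, 0.02 and −0.19), so the numbers were not taken as pairs. Limma-voom on the recovered reads gave 3210 rises and 7211 falls. Levels are shares of a library, so a scale on which all cells hold equal RNA was not available, and with 3 libraries per population, values under about 1 RPKM rest on few reads in short genes.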
